A study of Mus musculus with 6 samples.

Results

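Genes for the enzymes of central carbon metabolism were described in DN4 thymocytes that were positive or negative for GFP from a Gata3 reporter. The genes were 49 enzymes and regulatory kinases of glycolysis, lactate and pyruvate dehydrogenase, the pentose phosphate pathway and the tricarboxylic acid (TCA) cycle, chosen by symbol. All 49 were found among the 41386 genes listed in the 6-library table of FPKM (fragments scaled to exon length and library size). DN4 cells are the last double-negative stage of the thymus, which has passed selection for the T cell receptor beta chain and comes just before the double-positive stage. Both groups came from adult C57BL/6 mice of genotype Gata3(g/+), so every library carried the reporter allele beside a wild-type allele and no library without the reporter was compared. GFP-positive and GFP-negative DN4 thymocytes gave 3 libraries each, made from total RNA depleted of ribosomal RNA. Nothing in the labels says that libraries came from separate animals or how many animals were pooled, so p-values measure the spread between libraries, which may be technical.

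Glycolysis splits glucose into pyruvate in the cytosol, and lactate dehydrogenase turns pyruvate into lactate. Alternatively the pyruvate dehydrogenase complex, which its kinases switch off by phosphorylation, passes the carbon as acetyl-CoA to the TCA cycle in mitochondria. The pentose phosphate pathway branches from glucose 6-phosphate and yields NADPH and the ribose of nucleotides. Thymocytes that divide after beta selection are known for high use of glucose, and thymocytes at the resting double-positive stage for low use.

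Gata3, the gene of the reporter, had 64.2, 62.7 and 63.0 FPKM in GFP-positive libraries 1 to 3, against 20.8, 24.3 and 22.3 FPKM in GFP-negative libraries 1 to 3. FPKM does not tell transcripts of its alleles apart. The relative depth of the libraries, read from the steps between low FPKM values, lay between 0.871 and 1.28, with GFP-negative library 1 set to 1, and absolute depth is unknown. Between 10793 and 11632 genes reached 1 FPKM in a library. All 11 genes of the DN4 and T lineage list, Ptcra, Cd3e and Lck among them, had a mean of at least 1 FPKM over the 6 libraries. Of these 2 passed as higher (18.2%) and 5 as lower (45.5%) in GFP-positive cells, against 24.4% and 29.8% of all tested genes. Lck, the proximal kinase of T cell receptor signals, was 2.25-fold lower by means. The 10 genes of the double-positive list summed to 528 to 572 FPKM in GFP-positive and 2712 to 3701 FPKM in GFP-negative libraries, and all 10 passed the test as lower in GFP-positive cells. Of the gamma-delta T cell list, 7 of 8 genes passed as higher and 1 as lower, with sums of 162 to 165 FPKM in GFP-positive and 148 to 155 FPKM in GFP-negative libraries. The natural killer list summed to 97.2 to 108 FPKM in GFP-positive and 19.0 to 37.5 FPKM in GFP-negative libraries, nearly all of it Gzma, a granzyme, with 98.9, 95.3 and 101 FPKM in GFP-positive and 14.6, 18.9 and 37.2 FPKM in GFP-negative libraries. Nkg7, the other tested gene of that list, did not pass, and its defining receptor gene Ncr1 was at most 0.0828 FPKM in any library. Myeloid markers summed to at most 0.351 FPKM in GFP-positive and 2.64 FPKM in GFP-negative libraries, and the B cell list to 2.24 to 3.60 FPKM in GFP-positive and 7.10 to 9.71 FPKM in GFP-negative libraries. Of the B cell list Cd79b passed as lower, with 2.66 ± 0.700 FPKM in GFP-positive and 7.83 ± 1.38 FPKM in GFP-negative cells (SD, n = 3 each), and Pax5 was listed at 0 in all 6 libraries. The libraries are bulk RNA, in which fewer cells of a type and less RNA per cell cannot be told apart.

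Most enzyme genes were higher in GFP-positive cells. Of the 46 tested genes, 28 rose and 4 fell (limma, Benjamini-Hochberg adjusted p under 0.05), while 24.4% of all 11465 tested genes passed as higher, 29.8% as lower and 54.2% in either direction. The 4 that fell were Ldhb, Pdk1, Pdk2 and Pfkfb3. Hk3, Aldoc and Eno2 averaged under 1 FPKM and were not tested. The median log2 fold change was 0.52 over the 46 enzyme genes and -0.08 over all tested genes, where a positive value means higher in GFP-positive cells and the scale is log2(FPKM + 0.5). Of the called genes, 10 were at least 2-fold higher and 3 at least 2-fold lower. The share of all tested genes past that 2-fold cut was not computed, so these 2 counts have no background beside them. In 29 of the 46 every GFP-positive library lay above every GFP-negative library, and in 9 every GFP-positive library lay below. For all tested genes these shares were 28.7% and 35.1%. The split of calls over all genes depends on scaling: 2797 were higher and 3419 lower as deposited, against 3494 higher and 2846 lower after quantile normalization, which moved the median of all genes to 0.06. The enzyme genes gave 29 higher and 3 lower calls under that scaling.

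**Figure D1:**
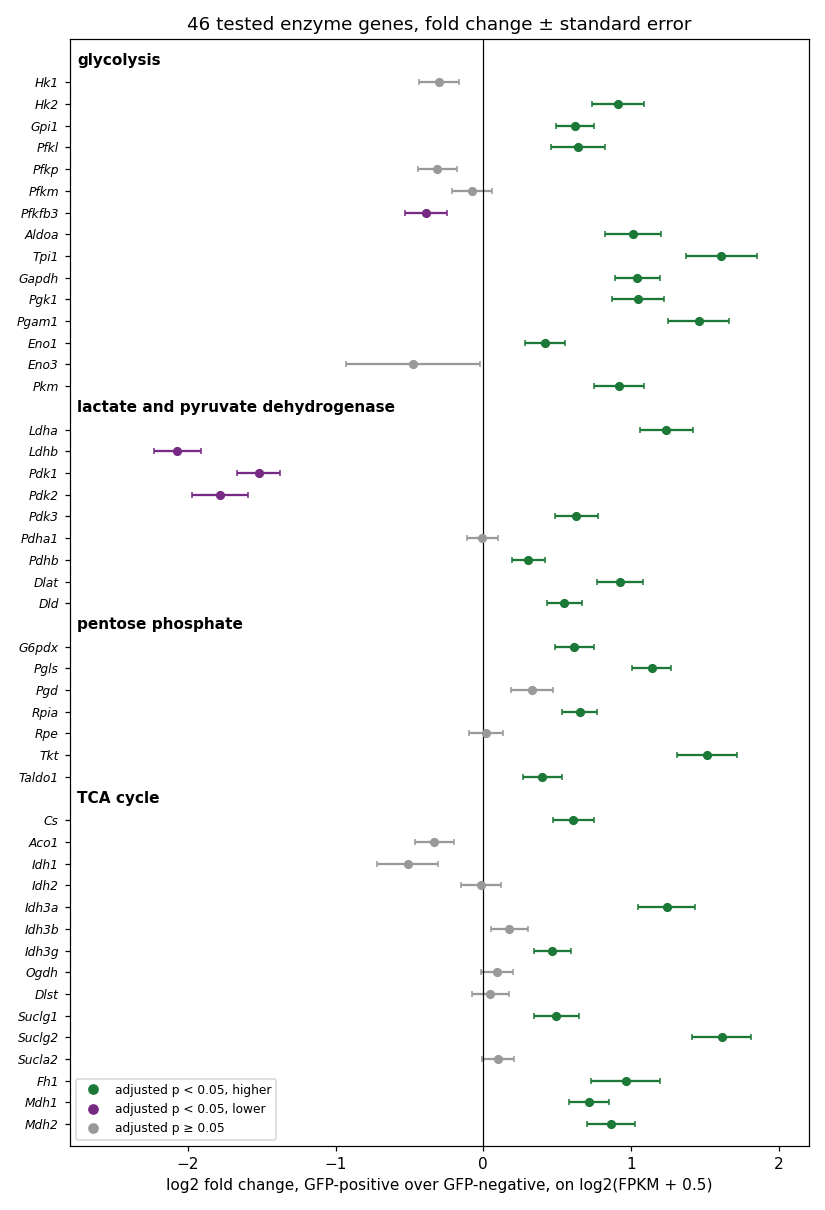
Log2 fold change of GFP-positive over GFP-negative cells, on the log2(FPKM + 0.5) scale, for the 46 tested enzyme genes in pathway order; points are limma estimates from 3 against 3 libraries and bars are standard errors. Of these, 28 points past the threshold lie right of 0, and the 4 to its left are Ldhb (-2.07), Pdk2 (-1.78), Pdk1 (-1.52) and Pfkfb3 (-0.39).

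Glycolysis had 10 genes higher, 1 lower and 4 not called among 15 tested, with a median log2 fold change of 0.64. These are 66.7% higher and 6.67% lower, against 24.4% and 29.8% of all tested genes. Of the hexokinases, which phosphorylate glucose in the first step, Hk1 was the most abundant transcript in all libraries. Hk1, the widely expressed form that binds mitochondria, had 13.7, 12.4 and 16.3 FPKM in GFP-positive libraries 1 to 3, against 18.6, 17.1 and 16.6 FPKM in GFP-negative libraries 1 to 3. The groups did not overlap, but the log2 fold change of -0.30 ± 0.13 (SE) did not pass (limma, adjusted p = 0.0848). Hk2, the inducible form of growing cells, had 3.78, 4.82 and 4.72 FPKM in GFP-positive libraries 1 to 3, against 2.13, 2.05 and 2.15 FPKM in GFP-negative libraries 1 to 3. Every GFP-positive library lay above every GFP-negative library, with a log2 fold change of 0.91 (SE 0.18; adjusted p = 0.00245, limma). Hk3, known from myeloid cells, was listed at 0 in 5 libraries and at 0.0389 FPKM in GFP-positive library 3. The summed hexokinase level was 18.6 ± 2.15 FPKM in GFP-positive and 19.6 ± 1.07 FPKM in GFP-negative cells (SD, n = 3 each), a difference within the spread. Within that sum the share of Hk2 was 24.0 ± 3.44% in GFP-positive and 10.8 ± 0.622% in GFP-negative cells.

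Gpi1, which isomerizes glucose 6-phosphate to fructose 6-phosphate, averaged 102 ± 11.8 FPKM in GFP-positive and 66.3 ± 5.89 FPKM in GFP-negative cells (SD, n = 3 each), and it rose. Phosphofructokinase, the committed step, is encoded by Pfkl, Pfkp and Pfkm, the liver, platelet and muscle forms. Pfkl had 13.1, 16.6 and 19.1 FPKM in GFP-positive libraries 1 to 3, against 8.11, 11.4 and 11.2 FPKM in GFP-negative libraries 1 to 3, with no overlap and a log2 fold change of 0.64 (SE 0.18; adjusted p = 0.0154, limma). Without GFP-positive library 3 its adjusted p was 0.0645 (limma). Pfkp, the most abundant of the 3, had 19.6, 19.9 and 23.1 FPKM in GFP-positive and 29.9, 23.5 and 24.9 FPKM in GFP-negative libraries. Its groups did not overlap, yet its log2 fold change of -0.31 did not pass (limma, adjusted p = 0.072). Pfkm had 5.72, 5.93 and 5.83 FPKM in GFP-positive and 5.95, 6.23 and 6.32 FPKM in GFP-negative libraries, levels that lay close together without overlap (limma, adjusted p = 0.649). The summed level of the family was 43.0 ± 4.80 FPKM in GFP-positive and 42.6 ± 1.40 FPKM in GFP-negative cells, while the share of Pfkl was 37.7 ± 3.07% in GFP-positive and 24.2 ± 5.06% in GFP-negative cells (SD, n = 3 each). Pfkfb3, which makes and breaks down fructose 2,6-bisphosphate, the activator of phosphofructokinase, had 7.09, 8.50 and 9.09 FPKM in GFP-positive and 12.1, 10.2 and 10.4 FPKM in GFP-negative libraries. It was called lower with a log2 fold change of -0.39 (SE 0.14; adjusted p = 0.046, limma), a call that was lost under 12 of 15 alternatives. Exons of Pitrm1 cover 5.58% of those of Pfkp on the opposite strand, and Pitrm1 had a log2 fold change of 1.06, so reads there cannot be assigned to one of the genes without strand.

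From aldolase onward each step had a dominant gene that rose. Aldoa, the main aldolase, had 74.7, 88.4 and 102 FPKM in GFP-positive libraries 1 to 3, against 32.5, 46.7 and 53.2 FPKM in GFP-negative libraries 1 to 3, whereas its paralog Aldoc stayed between 0.0336 and 0.846 FPKM. Tpi1, triose phosphate isomerase, had 82.2, 99.1 and 105 FPKM in GFP-positive libraries 1 to 3, against 23.5, 26.5 and 46.7 FPKM in GFP-negative libraries 1 to 3. No GFP-negative library of either gene reached the lowest GFP-positive library, and the log2 fold changes were 1.01 for Aldoa and 1.61 (SE 0.24; adjusted p = 0.000936, limma) for Tpi1. Gapdh, the glyceraldehyde phosphate dehydrogenase often used as a reference gene in other assays, averaged 725 ± 34.2 FPKM in GFP-positive and 355 ± 65.8 FPKM in GFP-negative cells (SD, n = 3 each) and was the most abundant enzyme gene in both groups. Its log2 fold change was 1.04 (SE 0.15; adjusted p = 0.000621, limma), and 0.37 after quantile normalization, where it still passed. Gapdh has 78 near-identical other genes in the annotation, and the 72 of them in the table summed to 1.23% of its own level in GFP-positive and 1.53% in GFP-negative cells. The sources used here do not state how reads of such copies were assigned.

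Pgk1, phosphoglycerate kinase and the first ATP-yielding step, had 97.8, 115 and 112 FPKM in GFP-positive libraries 1 to 3, against 39.5, 56.2 and 63.3 FPKM in GFP-negative libraries 1 to 3. Pgam1, phosphoglycerate mutase, had 62.6, 79.5 and 71.6 FPKM in GFP-positive libraries 1 to 3, against 18.7, 26.0 and 34.0 FPKM in GFP-negative libraries 1 to 3. Both were higher in every GFP-positive library than in any GFP-negative library, with log2 fold changes of 1.05 for Pgk1 and 1.46 (SE 0.20; adjusted p = 0.000603, limma) for Pgam1. Eno1, the ubiquitous enolase, had 101, 107 and 119 FPKM in GFP-positive libraries 1 to 3, against 68.3, 87.0 and 90.6 FPKM in GFP-negative libraries 1 to 3. Its libraries did not overlap between the groups, and its log2 fold change was smaller at 0.42 (SE 0.14; adjusted p = 0.03, limma). That call was lost under 6 of 15 alternatives (limma, adjusted p up to 0.153), with a log2 fold change of 0.24 in the 4-library table. Eno2, the neuronal form, lay between 0.199 and 1.57 FPKM in the 6 libraries. Eno3, the muscle form, had 0.851, 3.54 and 4.55 FPKM in GFP-positive and 3.38, 3.76 and 3.97 FPKM in GFP-negative libraries, and its groups overlapped (limma, adjusted p = 0.403). Eno1 made up at least 93.8% of the summed enolase level in every library. Pkm, pyruvate kinase, which closes the pathway, averaged 191 ± 29.8 FPKM in GFP-positive and 101 ± 17.7 FPKM in GFP-negative cells (SD, n = 3 each) and rose by 0.92 on the log2 scale. Its M1 and M2 transcripts are not separated in the gene-level values.

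**Figure D2:**
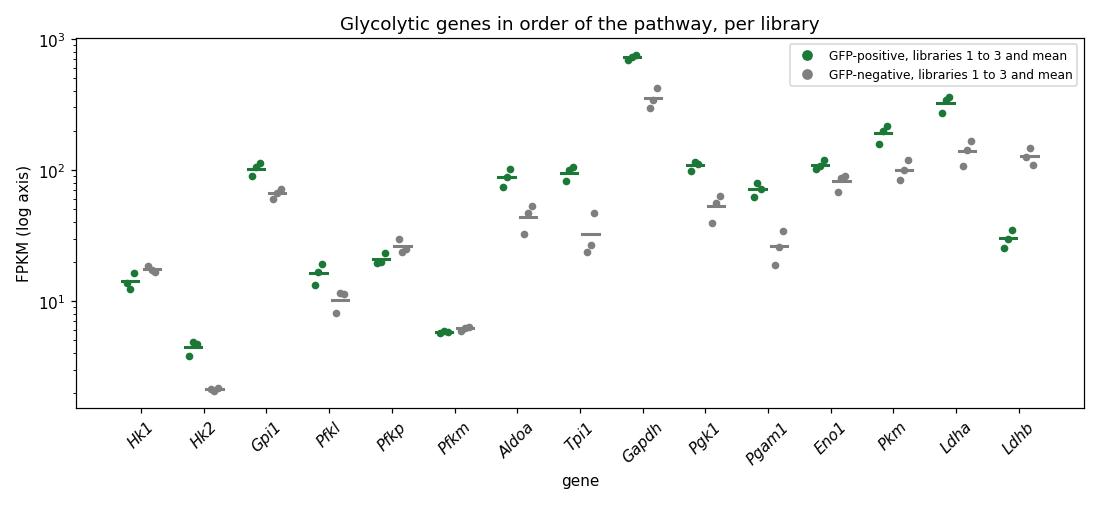
FPKM on a log axis for the genes of glycolysis and lactate dehydrogenase, in the order of the pathway, with GFP-positive libraries 1 to 3 left of GFP-negative libraries 1 to 3 and a bar at each mean. Hk2, Gpi1, Pfkl, Aldoa, Tpi1, Gapdh, Pgk1, Pgam1, Eno1, Pkm and Ldha lie higher in all GFP-positive libraries. Hk1, Pfkp and Pfkm lie lower in all GFP-positive libraries but did not pass. Ldhb lies lower at 25.4 to 35.1 FPKM in GFP-positive against 109 to 148 FPKM in GFP-negative libraries.

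The widest split between paralogs was in lactate dehydrogenase. Ldha encodes the subunit that favours pyruvate to lactate and Ldhb the subunit of oxidative tissues such as heart. Ldha (ENSMUSG00000063229, chromosome 7, 46841475 to 46855627 of GRCm38, plus strand) had 274, 341 and 362 FPKM in GFP-positive libraries 1 to 3, against 108, 142 and 167 FPKM in GFP-negative libraries 1 to 3. Ldhb (ENSMUSG00000030246, chromosome 6, 142490249 to 142507957, minus strand) had 25.4, 29.6 and 35.1 FPKM in GFP-positive libraries 1 to 3, against 126, 148 and 109 FPKM in GFP-negative libraries 1 to 3. Each gene separated the groups completely, in opposite directions. Ldha was 2.34-fold higher by means, with a log2 fold change of 1.24 (SE 0.18; adjusted p = 0.000646, limma). Ldhb was 4.25-fold lower by means, with a log2 fold change of -2.07 (SE 0.16; adjusted p = 2.76e-05, limma). The summed level of both was 356 ± 50.7 FPKM in GFP-positive and 267 ± 29.9 FPKM in GFP-negative cells (SD, n = 3 each). Ldha made up 91.5, 92.0 and 91.2% of that sum in GFP-positive libraries 1 to 3, against 46.2, 48.98 and 60.5% in GFP-negative libraries 1 to 3. The log2 ratio of Ldha to Ldhb differed by 3.31 between the groups, with a two-sided exact permutation p of 0.10, the smallest that 3 against 3 libraries allow, and 0.13 after Benjamini-Hochberg adjustment over 13 paralog pairs.

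Glycolytic promoters are known to hold E-boxes bound by MYC and related factors and sites bound by hypoxia-inducible factors. The 250 bases before the RefSeq start were therefore searched on both strands for CACGTG, the canonical E-box, and for ACGTG and GCGTG, the core letters of hypoxia response elements. Each CACGTG also holds ACGTG. The windows of Ldha, which rose, and of Ldhb and Pdk2, which fell, are printed 5′ to 3′ on the strand of the gene (RefSeq, GRCm38.p6), with matches on either strand in capitals. They are chr7:46845554-46845803 (plus strand) for Ldha, chr6:142507958-142508207 (minus strand) for Ldhb and chr11:95041372-95041621 (minus strand) for Pdk2.
Ldha: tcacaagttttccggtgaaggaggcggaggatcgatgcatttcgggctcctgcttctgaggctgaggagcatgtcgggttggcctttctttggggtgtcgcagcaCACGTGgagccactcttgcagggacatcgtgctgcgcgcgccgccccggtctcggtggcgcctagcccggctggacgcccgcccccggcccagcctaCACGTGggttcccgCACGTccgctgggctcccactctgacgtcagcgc
Ldhb: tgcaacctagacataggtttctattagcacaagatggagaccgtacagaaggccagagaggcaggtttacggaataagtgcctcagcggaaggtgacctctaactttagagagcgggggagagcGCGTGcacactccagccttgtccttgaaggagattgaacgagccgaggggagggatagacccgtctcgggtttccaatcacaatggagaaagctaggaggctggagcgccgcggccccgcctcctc
Pdk2: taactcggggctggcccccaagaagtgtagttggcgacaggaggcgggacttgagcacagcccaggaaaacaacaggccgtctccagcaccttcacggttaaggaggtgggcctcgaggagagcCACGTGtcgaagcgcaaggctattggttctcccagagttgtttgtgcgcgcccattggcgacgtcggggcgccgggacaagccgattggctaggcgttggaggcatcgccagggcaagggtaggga
The Ldha window held 2 CACGTG matches, beginning 145 and 48 bases before the start, and 1 further ACGTG on the reverse strand, 34 bases before the start. Its start lies 4329 bases inside the 5′ end of the GENCODE gene. The Ldhb window held 1 GCGTG and the Pdk2 window 1 CACGTG, each beginning 126 bases before the start. Of the 48 enzyme genes with a window, CACGTG occurred in 6.25%, against 6.42% of 20591 genes with a window and 8.92% of the 7845 of them that were tested. The 3 enzyme genes that held it were Ldha, Pdk2 and Pfkm, of which Pfkm was not called. Among the 27 genes called higher with a window, Ldha was the only 1 with CACGTG (3.70%). Among the 4 called lower it was Pdk2 (25.0%). ACGTG occurred in 27.1% of the enzyme genes, 17.3% of all and 22.9% of tested genes, and GCGTG in 50.0%, 31.9% and 47.8% of the same sets. A match is a description of the letters in these windows and not a bound site.

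Pyruvate dehydrogenase kinases, which inhibit entry of pyruvate into the TCA cycle, also moved in opposite directions. Pdk1 (chromosome 2, 71873224 to 71903858, plus strand) had 20.6, 18.8 and 23.1 FPKM in GFP-positive libraries 1 to 3, against 49.9, 66.9 and 66.4 FPKM in GFP-negative libraries 1 to 3. Pdk2 (chromosome 11, 95026258 to 95041354, minus strand) had 1.498, 1.03 and 1.56 FPKM in GFP-positive libraries 1 to 3, against 6.27, 5.76 and 5.55 FPKM in GFP-negative libraries 1 to 3. Both fell without overlap, with log2 fold changes of -1.52 for Pdk1 and -1.78 for Pdk2 (limma, adjusted p = 9.02e-05 and 0.000165). Pdk3, on the X chromosome (93764607 to 93832201, minus strand), had 15.2, 16.4 and 15.2 FPKM in GFP-positive libraries 1 to 3, against 8.48, 9.63 and 12.0 FPKM in GFP-negative libraries 1 to 3. It rose without overlap, with log2 fold change 0.63 (SE 0.15; adjusted p = 0.00586, limma). The summed level of the 3 kinases was 37.9 ± 1.86 FPKM in GFP-positive and 77.0 ± 10.7 FPKM in GFP-negative cells (SD, n = 3 each). Pdk1 was the largest part in every library, while the share of Pdk3 was 41.4 ± 3.58% in GFP-positive and 13.02 ± 1.27% in GFP-negative cells. The log2 ratio of Pdk3 to Pdk2 differed by 2.41 (exact permutation p = 0.10, two-sided, adjusted p = 0.13), and that of Pdk1 to Pdk2 overlapped between the groups.

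The subunits of the pyruvate dehydrogenase complex itself did not share 1 pattern. Pdha1, the catalytic E1 alpha subunit that the kinases phosphorylate, averaged 48.97 ± 2.56 FPKM in GFP-positive and 49.2 ± 2.39 FPKM in GFP-negative cells (SD, n = 3 each), with log2 fold change -0.01 (SE 0.11; adjusted p = 0.966, limma). Its partner Pdhb averaged 45.9 ± 2.28 FPKM in GFP-positive and 37.2 ± 3.20 FPKM in GFP-negative cells and was called with an adjusted p of 0.0459 by limma, a call lost under 8 of 15 alternatives. Dlat, the E2 core of the complex, had 16.0, 22.1 and 22.4 FPKM in GFP-positive libraries 1 to 3, against 9.28, 10.8 and 10.7 FPKM in GFP-negative libraries 1 to 3. Dld, the E3 subunit that is shared with the oxoglutarate dehydrogenase complex, averaged 30.8 ± 0.743 FPKM in GFP-positive and 21.002 ± 2.47 FPKM in GFP-negative cells (SD, n = 3 each). Both rose, with log2 fold changes of 0.93 for Dlat and 0.55 for Dld. Lactate and pyruvate dehydrogenase genes as a group had 5 higher, 3 lower and 1 not called, with a median of 0.30. The share of higher calls was 55.6%, against 24.4% of all tested genes. The share of lower calls, 33.3%, was near the 29.8% of all tested genes.

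**Figure D3:**
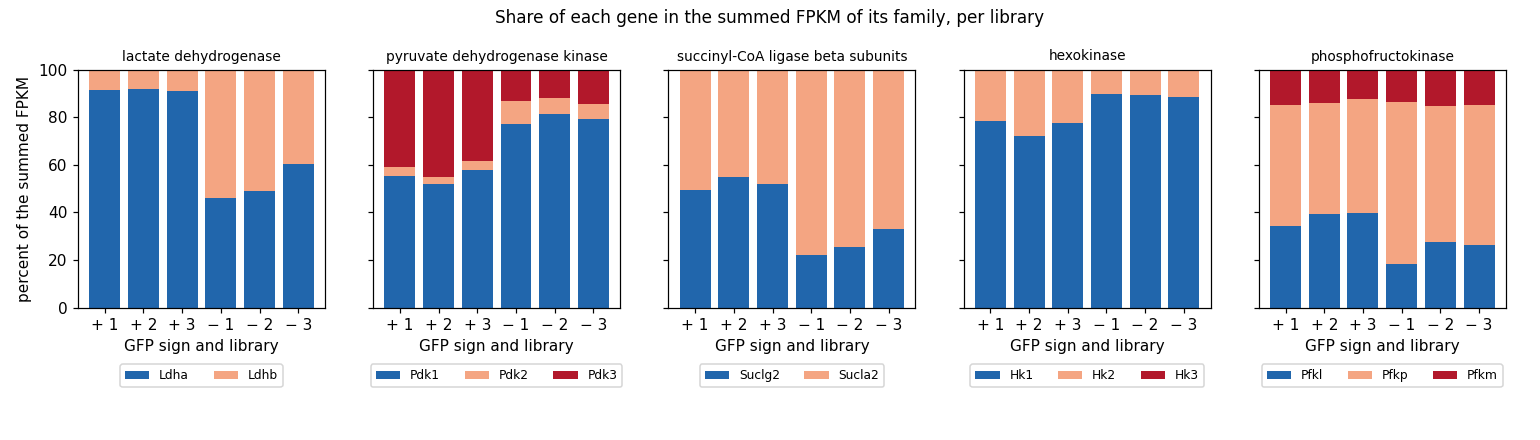
Share of each gene in the summed FPKM of its enzyme family, in percent, for GFP-positive libraries 1 to 3 (left bars, +) and GFP-negative libraries 1 to 3 (right bars, -). Ldha takes 91.2 to 92.0% in GFP-positive and 46.2 to 60.5% in GFP-negative libraries, and the shares of Pdk3, Suclg2, Hk2 and Pfkl are also larger in every GFP-positive library.

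In the pentose phosphate pathway 5 of 7 genes rose (71.4%, against 24.4% of all tested genes). None fell by limma, against 29.8% of all tested genes, and the median log2 fold change was 0.62. At an unadjusted p under 0.05 none was lower either, and Pgd was also higher. Of the oxidative branch, G6pdx, the NADPH-forming entry enzyme, averaged 14.1 ± 1.21 FPKM in GFP-positive and 9.06 ± 0.812 FPKM in GFP-negative cells (SD, n = 3 each) and rose by 0.62 on the log2 scale. Pgls, the lactonase of the next step, had 57.1, 64.4 and 65.7 FPKM in GFP-positive libraries 1 to 3, against 25.9, 25.9 and 32.8 FPKM in GFP-negative libraries 1 to 3, with a log2 fold change of 1.14 (SE 0.13; adjusted p = 0.000216, limma). Pgd, the second NADPH-forming enzyme, had 24.0, 30.2 and 31.5 FPKM in GFP-positive and 20.3, 21.7 and 25.7 FPKM in GFP-negative libraries. Its groups overlapped and it did not pass (limma, adjusted p = 0.0812).

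Tkt, transketolase, the gene of the non-oxidative branch that links pentoses back to glycolysis, changed most in the pathway. Tkt (chromosome 14, 30548359 to 30574720, plus strand) had 97.3, 112 and 118 FPKM in GFP-positive libraries 1 to 3, against 28.8, 36.02 and 51.98 FPKM in GFP-negative libraries 1 to 3. It was 2.80-fold higher by means without overlap, a log2 fold change of 1.51 (SE 0.20; adjusted p = 0.000464, limma). Taldo1, transaldolase, which works beside it, averaged 61.8 ± 7.77 FPKM in GFP-positive and 46.7 ± 4.76 FPKM in GFP-negative cells (SD, n = 3 each) and was called with a smaller log2 fold change of 0.40, a call lost under 6 of 15 alternatives. Rpia, which makes ribose 5-phosphate, had 20.3, 21.3 and 21.6 FPKM in GFP-positive libraries 1 to 3, against 12.1, 13.1 and 14.6 FPKM in GFP-negative libraries 1 to 3, a rise of 0.65 on the log2 scale with no overlap. Rpe, the epimerase for xylulose 5-phosphate, had 15.9, 18.7 and 16.4 FPKM in GFP-positive and 16.5, 16.7 and 17.1 FPKM in GFP-negative libraries, and the groups overlapped. Exons of Kansl1l cover 17.9% of those of Rpe on the opposite strand, and Kansl1l had a log2 fold change of -0.90, so the Rpe value may hold reads of both genes. Fam129c covers 20.6% of the exons of Pgls on the same strand, with a log2 fold change of 0.17 that did not pass (limma, adjusted p = 0.47). In all, 8 enzyme genes had at least 5% of their exons covered by another gene. Besides Pfkp, Rpe and Pgls they were Pdha1 (16.15%), Pkm (15.3%), G6pdx (13.6%), Gpi1 (11.5%) and Pfkm (10.2%). Their values may also hold reads of a second gene.

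Of 15 tested TCA cycle genes 8 rose (53.3%, against 24.4% of all tested genes). None fell, against 29.8% of all tested genes, and 7 were not called by limma, with a median log2 fold change of 0.47. At an unadjusted p under 0.05, 2 were lower (Aco1 and Idh1), and the authors' deposited table called 1 of them, Idh1. Cs, citrate synthase, the entry step, averaged 64.8 ± 4.70 FPKM in GFP-positive and 42.6 ± 6.68 FPKM in GFP-negative cells (SD, n = 3 each) and rose by 0.61 on the log2 scale. Aco1, the cytosolic aconitase and iron-responsive RNA-binding protein, had 7.22, 6.75 and 5.97 FPKM in GFP-positive and 8.11, 8.54 and 8.75 FPKM in GFP-negative libraries. Its groups did not overlap, and it did not pass (limma, adjusted p = 0.0645).

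Among isocitrate dehydrogenase genes, calls were made for Idh3a and Idh3g. Idh3a, the catalytic subunit of the NAD-dependent mitochondrial enzyme, had 36.3, 38.2 and 35.4 FPKM in GFP-positive libraries 1 to 3, against 10.9, 16.4 and 19.6 FPKM in GFP-negative libraries 1 to 3, a log2 fold change of 1.24 (SE 0.19; adjusted p = 0.00088, limma). Its partner subunit Idh3g averaged 46.8 ± 6.43 FPKM in GFP-positive and 33.5 ± 1.92 FPKM in GFP-negative cells (SD, n = 3 each) and rose by 0.47 on the log2 scale, with an adjusted p of 0.0558 by limma without GFP-positive library 3. The other partner, Idh3b, averaged 39.0 ± 4.80 FPKM in GFP-positive and 34.3 ± 2.74 FPKM in GFP-negative cells, and its groups overlapped. The NADP-dependent genes did not pass. Idh2, the mitochondrial form, had 37.9, 47.6 and 51.8 FPKM in GFP-positive and 46.3, 43.3 and 48.3 FPKM in GFP-negative libraries and overlapped between groups. Idh1, the cytosolic form, had 2.63, 3.24 and 3.38 FPKM in GFP-positive and 3.64, 5.91 and 4.46 FPKM in GFP-negative libraries, with a log2 fold change of -0.51 (limma, adjusted p = 0.0617).

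Ogdh, the E1 of the oxoglutarate dehydrogenase complex, averaged 47.8 ± 4.03 FPKM in GFP-positive and 44.6 ± 0.413 FPKM in GFP-negative cells (SD, n = 3 each). Dlst, its E2, averaged 31.0 ± 2.80 FPKM in GFP-positive and 30.0 ± 2.94 FPKM in GFP-negative cells. Both overlapped between the groups, while Dld, the E3 of this complex too, rose. Succinyl-CoA ligase pairs the alpha subunit Suclg1 with 1 of 2 beta subunits, Suclg2 for GTP or Sucla2 for ATP. Suclg2 (chromosome 6, 95473009 to 95718800, minus strand) had 21.5, 25.7 and 22.8 FPKM in GFP-positive libraries 1 to 3, against 5.85, 6.33 and 10.3 FPKM in GFP-negative libraries 1 to 3. Sucla2 had 21.96, 21.1 and 21.1 FPKM in GFP-positive and 20.6, 18.5 and 20.7 FPKM in GFP-negative libraries, so that its groups were close but did not overlap. Suclg2 rose with log2 fold change 1.61 (SE 0.20; adjusted p = 0.000339, limma). Sucla2 had a log2 fold change of 0.10 ± 0.11 (SE) and did not pass (limma, adjusted p = 0.46). Suclg2 made up 49.4, 55.0 and 51.9% of the 2 beta subunits in GFP-positive libraries 1 to 3, against 22.1, 25.5 and 33.3% in GFP-negative libraries 1 to 3 (exact permutation p = 0.10, two-sided, for the log2 ratio, adjusted p = 0.13). Suclg1 averaged 26.5 ± 2.75 FPKM in GFP-positive and 18.8 ± 3.58 FPKM in GFP-negative cells (SD, n = 3 each) and was called with a log2 fold change of 0.49, though not under 6 of 15 alternatives.

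Fh1, fumarate hydratase, had 22.6, 29.4 and 29.4 FPKM in GFP-positive libraries 1 to 3, against 9.47, 13.8 and 19.1 FPKM in GFP-negative libraries 1 to 3. It rose without overlap, with log2 fold change 0.96 (SE 0.24; adjusted p = 0.0086, limma). Malate dehydrogenase closes the cycle in mitochondria as Mdh2 and works in the cytosol as Mdh1, in the malate-aspartate shuttle. Mdh2 had 107, 125 and 133 FPKM in GFP-positive libraries 1 to 3, against 53.1, 69.4 and 79.5 FPKM in GFP-negative libraries 1 to 3. Mdh1 had 72.1, 82.5 and 83.002 FPKM in GFP-positive libraries 1 to 3, against 41.2, 49.2 and 54.5 FPKM in GFP-negative libraries 1 to 3. Both rose together, with log2 fold changes of 0.86 for Mdh2 and 0.71 for Mdh1, and their log2 ratio differed by 0.15 between the groups.

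Across the 13 paralog pairs, 10 log2 ratios did not overlap between the groups (two-sided exact permutation p = 0.10 each, the smallest possible, and adjusted p = 0.13). Of all 11465 tested genes, 63.8% did not overlap between the groups either, and the share among ratios of other gene pairs was not computed. The ratios that overlapped were Aldoc to Aldoa, Eno2 to Eno1 and Pdk1 to Pdk2. The ratio of Hk3 to Hk1 counts among the 10 although Hk3 was at or near 0, so its value is set mainly by Hk1. Besides Ldha to Ldhb and Pdk3 to Pdk2, the largest differences were -1.51 for Sucla2 to Suclg2 and 1.21 for Hk2 to Hk1. No pair passed 0.05, which 3 against 3 libraries cannot reach in this test.

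Levels of the enzyme genes also varied within each group, with library 1 the lowest for most genes. Among the 28 called higher, library 1 was the lowest of the GFP-positive libraries in 27 and the lowest of the GFP-negative libraries in 26. Library 3 was the highest in 20 in GFP-positive and in 24 in GFP-negative cells. The mean log2(FPKM + 0.5) of these 28 was 5.60, 5.81 and 5.85 in GFP-positive libraries 1 to 3 and 4.63, 4.90 and 5.11 in GFP-negative libraries 1 to 3. While 24.4% of all tested genes rose, all 22 genes of a proliferation list did, such as Mki67 and Mcm2, with a median log2 fold change of 1.48. Their mean log2 level was 6.44, 6.57 and 6.57 in GFP-positive libraries 1 to 3 and 4.73, 4.98 and 5.56 in GFP-negative libraries 1 to 3. Proliferation genes thus rose with most enzyme genes between the groups, while all 10 double-positive markers fell. The part of either list in the enzyme differences was not tested.

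**Figure D4:**
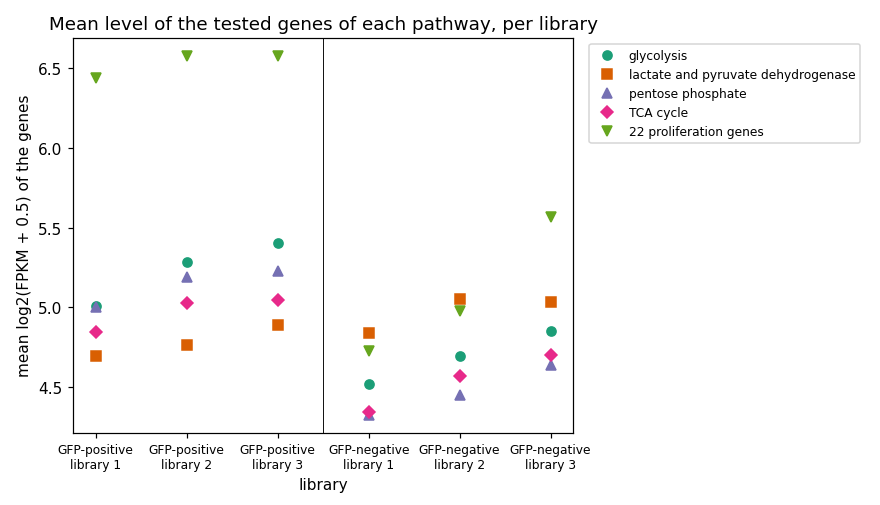
Mean log2(FPKM + 0.5) over the tested genes of each pathway and over 22 proliferation genes, for GFP-positive libraries 1 to 3 (left) and GFP-negative libraries 1 to 3 (right). Glycolysis lies at 5.01, 5.29 and 5.40 in GFP-positive and 4.52, 4.69 and 4.86 in GFP-negative libraries, and lactate and pyruvate dehydrogenase genes lie at 4.70, 4.77 and 4.89 in GFP-positive and 4.84, 5.06 and 5.03 in GFP-negative libraries.

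Further genes of the same pathways were taken from lists chosen by function. Of 14 tested genes of the TCA cycle and its shunts beyond the enzymes above, 9 rose (64.3%, against 24.4% of all tested genes). None fell by limma, against 29.8% of all tested genes, and none was lower at an unadjusted p under 0.05. Got2, the mitochondrial aspartate aminotransferase of the malate-aspartate shuttle, averaged 63.8 ± 3.82 FPKM in GFP-positive and 25.6 ± 6.12 FPKM in GFP-negative cells (SD, n = 3 each), with log2 fold change 1.33, and its cytosolic partner Got1 had a log2 fold change of 1.16. Among 12 further glycolysis enzymes 2 were higher (16.7%) and 5 lower (41.7%), against 24.4% and 29.8% of all tested genes. Adpgk, the ADP-dependent glucokinase, rose by 0.70 on the log2 scale. The gene listed as Pgm2 (ENSMUSG00000025791), which the reference gene names give as Pgm1, a phosphoglucomutase, rose by 0.68 on the log2 scale but did not pass in the 4-library table (limma, adjusted p = 0.128). Ldhd, the mitochondrial dehydrogenase for D-lactate, had 2.30, 2.80 and 2.95 FPKM in GFP-positive libraries 1 to 3, against 14.2, 11.5 and 11.7 FPKM in GFP-negative libraries 1 to 3, a log2 fold change of -2.02 (SE 0.16; adjusted p = 3.28e-05, limma) with no overlap. Pfkfb2, a paralog of Pfkfb3, had a log2 fold change of -0.99 and fell as well.

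Transport gave 2 higher and 2 lower of 7 tested genes (28.6% each), close to the 24.4% and 29.8% of all tested genes. Slc2a1 and Slc2a3, the main glucose carriers of T cells, overlapped between the groups and did not pass (limma, adjusted p = 0.363 and 0.525). Slc16a1, a lactate carrier, and its chaperone Bsg were called with log2 fold changes of 0.63 and 0.48, calls lost under 7 and 4 of 15 alternatives. Slc2a9 and Slc2a8, members of the glucose transporter family, were called lower with log2 fold changes of -1.12 and -0.67. Of the 14 alternatives that tested them, 4 lost the call of Slc2a9 and 11 that of Slc2a8 (limma, adjusted p up to 0.0577 and 0.341). Mpc1, a subunit of the mitochondrial pyruvate carrier, had a log2 fold change of 0.44 and was the 1 call among 6 tested genes of pyruvate entry, lost under 8 of 15 alternatives. That is 16.7% higher and 0% lower, against 24.4% and 29.8% of all tested genes. In the pentose phosphate list of 4 tested genes, 1 was higher and 1 lower (25.0% each), close to the 24.4% and 29.8% of all tested genes. Prps1, which turns ribose 5-phosphate into the precursor of nucleotides, rose by 1.04 on the log2 scale. Its more abundant paralog Prps2 averaged 64.9 ± 3.21 FPKM in GFP-positive and 80.2 ± 14.8 FPKM in GFP-negative cells (SD, n = 3 each). Prps2 lay lower without overlap but did not pass, with a log2 fold change of -0.29 (limma, adjusted p = 0.111). H6pd, the glucose 6-phosphate dehydrogenase of the endoplasmic reticulum, had 10.3, 11.7 and 11.7 FPKM in GFP-positive libraries 1 to 3, against 35.4, 24.3 and 25.6 FPKM in GFP-negative libraries 1 to 3, a log2 fold change of -1.29 (SE 0.16; adjusted p = 0.000309, limma) opposite to that of cytosolic G6pdx. Of the gluconeogenesis list G6pc3, the widely expressed glucose 6-phosphatase, was the 1 gene tested and rose by 1.45 on the log2 scale.

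Of 9 tested transcription factors and regulators of glucose metabolism 1 rose (11.1%) and 5 fell (55.6%), against 24.4% and 29.8% of all tested genes. Of the 5, the call of Mlxip was lost under 11 of 15 alternatives (limma, adjusted p up to 0.196). Myc, which drives growth and many glycolytic genes in other systems, averaged 99.1 ± 9.62 FPKM in GFP-positive and 27.1 ± 9.95 FPKM in GFP-negative cells (SD, n = 3 each), with log2 fold change 1.91. Hif1a, a hypoxia-inducible factor, averaged 26.3 ± 2.91 FPKM in GFP-positive and 29.8 ± 3.29 FPKM in GFP-negative cells. Its groups overlapped and it did not pass (limma, adjusted p = 0.269). Arnt, of the same list, was called lower with a log2 fold change of -0.60 (limma, adjusted p = 0.0023). Txnip, a protein that restrains glucose uptake, had 25.3, 12.9 and 17.9 FPKM in GFP-positive libraries 1 to 3, against 133, 141 and 97.6 FPKM in GFP-negative libraries 1 to 3. It was 6.63-fold lower by means with a log2 fold change of -2.73 (SE 0.24; adjusted p = 9.36e-05, limma). Esrra, a nuclear receptor of mitochondrial genes, had a log2 fold change of -1.22 and fell.

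In the authors' deposited table of 6 libraries, 32 of the 46 genes had a q under 0.05, against 49.3% of all genes that the authors tested. The calls of that table and of limma agreed for 30 called and 12 uncalled genes. Hk2 (q = 0.0590) and Pfkfb3 (q = 0.0836) were called by limma and not in the authors' deposited table. Pgd (q = 0.0436) and Idh1 (q = 0.0159) were called in the authors' deposited table and not by limma.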

How the data were processed

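RNA of sorted DN4 thymocytes was extracted with the QIAGEN RNeasy Micro Kit and depleted of ribosomal RNA with a NEBNext kit, per the labels' protocols. TopHat2, Cuffdiff and the build mm10 are named in the submitters' processing notes, and the sources used here give no version, annotation or strand setting. Per the file headers, the authors deposited FPKM per library from a run over 6 libraries and another over 4, and a q-value per gene. FPKM is scaled by gene length, so levels of different genes were compared on it.

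GFP-positive was compared with GFP-negative, 3 libraries each, with limma 3.58.1 in R 4.3.3 (lmFit, then eBayes with a trend and robust fitting) on log2(FPKM + 0.5). This scale understates changes of low genes. Genes needed a mean of at least 1 FPKM, and 24 with the authors' status HIDATA were left out. Benjamini-Hochberg adjustment ran over all 11465 genes, with a threshold of 0.05. Log2 ratios of 13 paralog pairs were compared with exact permutation tests (SciPy 1.17.1). Exon overlaps and positions came from GENCODE M21 (GRCm38), and near-identical copies (at least 95% identity over 200 bases) from BLAST 2.17.0. RefSeq promoter windows were matched by symbol for 48 of 49 genes, 13 of which had more than 1 window, and the one nearest the GENCODE 5′ end was used. Relative depth was read from genes under 0.1 FPKM with at least 1500 bp of exons, and 7.08% to 27.8% of them lay at the commonest ratio.

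The enzyme genes and all lists were chosen with earlier results of these data known. All enzyme genes were described, with values per library for paralogs and for the 3 largest called changes per direction in each pathway. Of each further list, up to 2 called genes per direction were named, and a few other genes beside them. The alternatives changed the pseudocount (0.1 or 1), the filter (none, or a mean of 5 FPKM), the scaling (quantile or upper quartile), the limma options (neither trend nor robust), the model (a replicate block) or the libraries (the 4-library table, or each library left out).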

Additional observations from a re-analysis of the deposited data

How the results depend on the processing

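Over the 15 alternatives the number of enzyme genes called higher ran from 22 to 29 and the number called lower from 3 to 4. Leaving out 1 library each gave 22 to 28 higher and 3 to 4 lower, with medians of 0.44 to 0.62. Of the 28 higher calls 21, and of the 4 lower calls 2, were made under all 15 alternatives. Hk2 and Pdk2 kept theirs in the 14 that tested them and fell below the minimum mean of 5 FPKM in the other. Calls lost were Pfkfb3 under 12 alternatives (adjusted p up to 0.217), Pdhb under 8 (0.137), and Eno1 (0.153), Taldo1 (0.117) and Suclg1 (0.0886) under 6 each. Calls of Eno1, Taldo1 and Suclg1 were each lost without GFP-positive library 2, GFP-positive library 3 or GFP-negative library 1, that of Pdhb without any library but GFP-negative library 2, and that of Pfkfb3 without any one library. Suclg1 was also lost without GFP-negative library 2. Without GFP-positive library 3 the higher calls numbered 22. Pfkl and Idh3g were lost without GFP-positive library 3 (limma, adjusted p = 0.0645 and 0.0558). Pgd was gained under 5 alternatives, Idh1 under 2 and Hk1 under 1. With a replicate block 29 enzyme genes were higher and 4 lower, and 2929 and 3461 of all genes. Whether same-numbered libraries share animals is not stated. They deviated with correlations of 0.09, -0.02 and 0.06, and the numbers were not taken as pairs. With 3 libraries in a group these values cannot exclude pairs. Of the 28 genes called higher, library 1 was lowest in 27 in GFP-positive and in 26 in GFP-negative cells. The 4-library table called 24 higher and 3 lower. The log2 ratio of Aldoc to Aldoa, where Aldoc was under 1 FPKM, was -0.38 and reversed to 0.40 with a pseudocount of 0.1 and to 0.033 in the 4-library table. Depth is unknown, so no counting error can be given for genes of low FPKM such as Hk3, Aldoc and Eno2.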
